A study of Mus musculus with 6 samples.

Results

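The genes described here are the 10 genes Cd274, Pdcd1lg2, Cmtm6, Cd80, Cd86, Cd40, Icosl, Tnfsf4, Tnfrsf14 and Havcr2, which encode PD-L1, PD-L2 and molecules through which myeloid cells stimulate or restrain T cells. They were chosen by name, and all 10 were found among the 17382 genes of the deposited table. RNA was sequenced from bone marrow cells of C57BL/6 mice aged 2 months. The cells had been strained and then cultured in M-CSF, which drives marrow precursors towards macrophages, at 40 ng/mL over 3 days. The libraries labelled CKO 1 to 3 came from mice of genotype PD-L1 flox/flox +lysozyme-Cre, and the libraries labelled WT 1 to 3 came from PD-L1 flox/flox littermates. Both groups therefore carried the floxed alleles and differed in the Cre transgene by their labels. Lysozyme-Cre is known to be active mainly in macrophages, monocytes and granulocytes and not in lymphocytes. Which cells of this culture had lost the gene was not measured. Neither the exons between the loxP sites nor the sex of the mice is stated in the labels. The series' design text describes the 3 libraries of each group as biological triplicates.

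PD-L1 and PD-L2 bind PD-1 on activated T cells and dampen signalling through the T cell receptor. CD80 and CD86 activate T cells through CD28 and restrain them through CTLA-4, while ICOS ligand and OX40 ligand act later in a response. CD40 is a receptor through which helper T cells activate macrophages and dendritic cells. Macrophages carry most of these molecules at low level at rest, and interferon gamma is the best known inducer of PD-L1 in them.

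The values are TPM, read numbers divided by gene length and scaled to the same total in each library, so levels of different genes can be set side by side. The number of reads assigned to genes ran from 52355659 to 77318131 per library. All 9 macrophage markers had reads in every library. Csf1r, the M-CSF receptor, lay at 815 to 1448 TPM in the libraries labelled CKO and 1042 to 1525 TPM in the libraries labelled WT. Lyz2, the lysozyme gene into which this Cre is usually inserted, was at 13232 to 19354 TPM in the libraries labelled CKO and 26707 to 40358 TPM in the libraries labelled WT. Those Lyz2 ranges do not overlap. Markers of other cells were present too. Summed over 7 markers of neutrophils and their precursors, which lysozyme-Cre also targets, the level was 6212 to 7171 TPM in the libraries labelled CKO and 5145 to 7483 TPM in the libraries labelled WT. S100a8 and S100a9 gave most of this sum in every library. Mpo, another of the 7, was at 79.3 to 99.0 TPM in the libraries labelled CKO and 74.6 to 112 TPM in the libraries labelled WT. Summed over 10 dendritic cell markers the level was 21.2 to 30.5 TPM in the libraries labelled CKO and 22.2 to 29.0 TPM in the libraries labelled WT. Summed over 7 B lineage markers it was 56.7 to 96.9 TPM in the libraries labelled CKO and 90.8 to 117 TPM in the libraries labelled WT. All 7 B lineage markers had a log2 difference below 0, with a median of -0.57. In limma, the test between the groups described below, 0 of the 7 passed. An unadjusted p under 0.05 was reached by 3, against 2.18% of all genes tested. The groups did not overlap for Pax5 and Vpreb3, nor for 5.12% of all genes tested. Dendritic and B cells also express CD80, CD86, CD40 and ICOS ligand, and their part in the levels below was not tested. In bulk RNA, fewer cells of a type and less RNA per cell cannot be told apart.

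The largest spread among the libraries did not follow the labels. Over all genes tested, 44.3% of the variance lay on the first principal component. Libraries CKO 1, CKO 2 and WT 3 lay on its negative side, at -23.1, -17.4 and -30.1, and CKO 3, WT 1 and WT 2 lay at 31.8, 19.8 and 19.1. Several of the 10 genes follow this division, as given with their values. No label names a batch.

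Levels of the 10 genes differed widely. Over the 6 libraries, Cmtm6 averaged 170 TPM and was number 1037 of 17382 genes by mean level, whereas Pdcd1lg2 averaged 0.188 TPM and was number 13182. Between them, in falling order of mean level, came Tnfrsf14 at 46.0 TPM, Havcr2 at 29.1, Cd40 at 28.4, Cd274 at 20.8, Cd80 and Icosl both at 18.7, Cd86 at 11.97 and Tnfsf4 at 3.12 TPM. The ranges over libraries of neighbours in this order overlapped from Tnfrsf14 down to Icosl. Within a library, Cd40 lay above Cd274 in 6 of 6 libraries, by least in CKO 3. Tnfrsf14 lay above Havcr2 and Cd80 above Icosl in 5 of 6, Cd274 above Cd80 in 4 of 6 and Havcr2 above Cd40 in 3 of 6. The ranges of Cmtm6, Cd86, Tnfsf4 and Pdcd1lg2 touched no neighbour's.

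**Figure D1:**
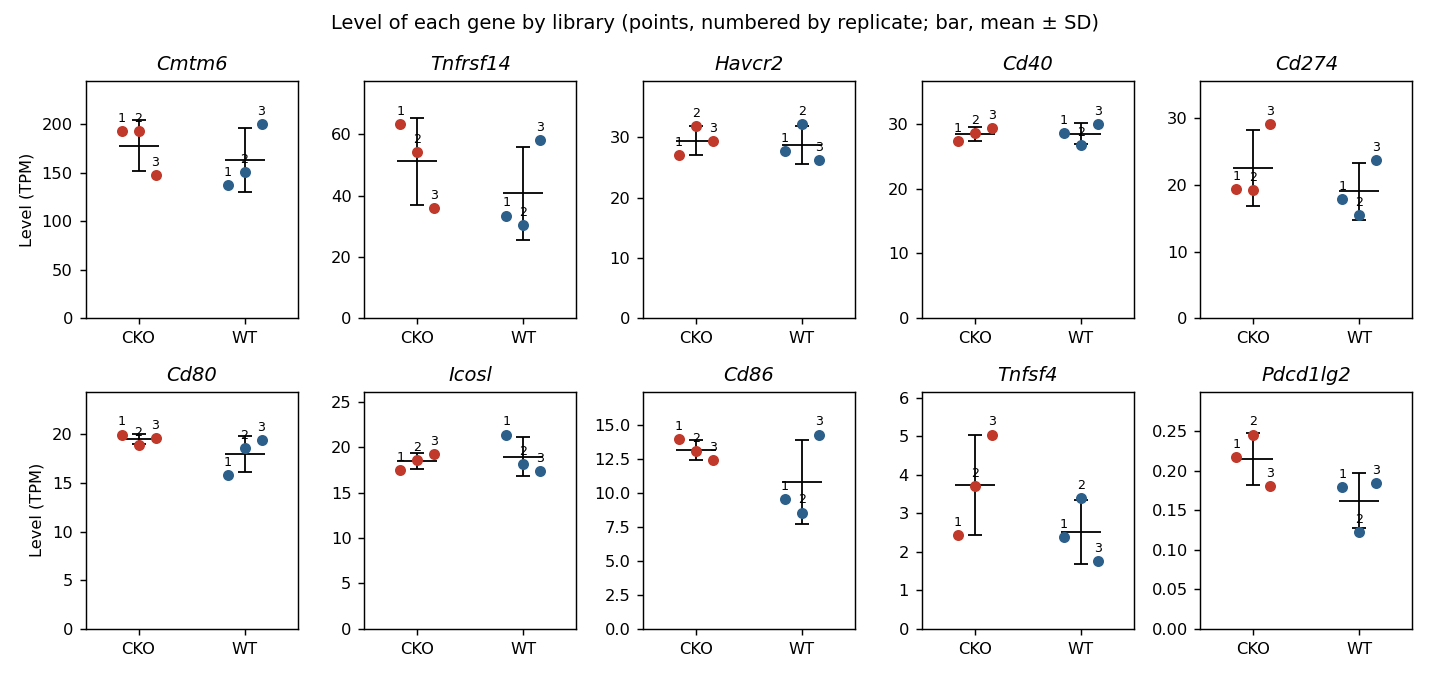
Level of each of the 10 genes in every library, on a linear axis in TPM that starts at 0 and has its own scale for each gene, with the libraries labelled CKO left of those labelled WT; points are libraries marked with their replicate number, horizontal lines group means and whiskers the SD (n = 3 each). Cmtm6 lies between 138 and 200 TPM and Pdcd1lg2 between 0.122 and 0.246 TPM, and the groups of all 10 genes overlap.

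None of the 10 genes passed the test between genotypes. The test was limma on log2(TPM + 0.1) over 13722 genes with p adjusted by Benjamini-Hochberg, and all 10 genes passed its filter of at least 0.1 TPM in at least 3 libraries. Over all genes tested, 0% were called higher and 0% lower in the libraries labelled CKO. An unadjusted p under 0.05 was reached by 299 genes, 2.18% of those tested, and by 0 of the 10. limma-voom on reads recovered from the TPM values called 0 genes as well, with 310 at an unadjusted p under 0.05. The adjusted p of each of the 10 genes rounded to 1.0. The groups overlapped for all 10 genes, while they did not overlap for 5.12% of all genes tested. The log2 difference was above 0 for 9 of the 10, against 51.1% of all genes tested, and its median was 0.19 against 0.00 over all genes. An adjusted p under 0.05 was given to 0.265% of genes in the authors' deposited table, and 0 of the 10 were among them.

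**Figure D2:**
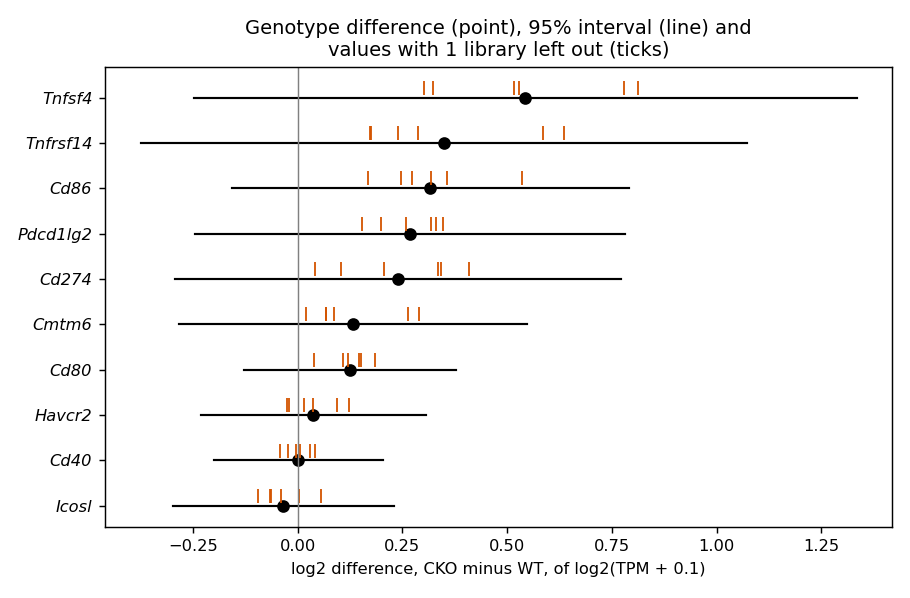
Log2 difference of each of the 10 genes, libraries labelled CKO minus libraries labelled WT, on the log2(TPM + 0.1) scale; points are limma estimates, lines their 95% intervals and orange ticks the estimates with 1 library left out. Each interval includes 0; that of Tnfsf4 is the widest, -0.25 to 1.33, and that of Cd40 the narrowest, -0.20 to 0.20.

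Cd274, the targeted gene, encodes PD-L1 and lies at chr19:29367438-29388094 on the plus strand of mm10. It had 19.3, 19.2 and 29.2 TPM in the libraries labelled CKO 1 to 3, against 17.9, 15.5 and 23.7 TPM in the libraries labelled WT 1 to 3. Library CKO 3 was the highest and WT 2 the lowest, and the groups overlapped. These levels rest on 1912 to 2576 reads per library in the libraries labelled CKO and 1376 to 2468 in the libraries labelled WT. The mean was 22.6 ± 5.73 TPM in the libraries labelled CKO and 19.0 ± 4.22 TPM in the libraries labelled WT (SD, n = 3 each). The log2 difference of 0.24 ± 0.22 (SE) had a 95% interval from -0.29 to 0.77, a change of -18.4% to 70.7% relative to the libraries labelled WT. Without CKO 3 it was 0.04, and without WT 3 it was 0.41. The mean of the gene sum was thus not lower in the libraries labelled CKO, though the interval reaches -18.4%. Every direction given here is drawn between labels that the level of this gene does not bear out. Lyz2 did separate by label, at 13232 to 19354 TPM in the libraries labelled CKO and 26707 to 40358 TPM in the libraries labelled WT.

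The deposited value of Cd274 is a sum over the whole gene. The gene length that underlies it is 3638 bases, and GENCODE M21 gives the gene 7 exons with a summed length of 3622 bases. The last exon holds 74.7% of that length and the first 6 exons hold 25.3%. A loss confined to some of the first 6 exons would remove only part of these reads, and exon-level values were not analysed here.

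Pdcd1lg2 encodes PD-L2, the other ligand of PD-1, and starts 43.5 kb beyond the start of Cd274 on the same strand, at chr19:29410919-29472927. It had 0.218, 0.246 and 0.181 TPM in the libraries labelled CKO 1 to 3, against 0.180, 0.122 and 0.184 TPM in the libraries labelled WT 1 to 3. The read numbers were 22, 23 and 15 in the libraries labelled CKO and 13, 13 and 18 in the libraries labelled WT. The 95% Poisson intervals, which cover counting error only, ran from 0.156 to 0.369 TPM in the highest library, CKO 2, and from 0.0652 to 0.209 TPM in the lowest, WT 2. Between the groups the log2 difference was 0.27 ± 0.21. Per length, Cd274 stood 78.0-fold to 161-fold above Pdcd1lg2 within each library.

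Sequence before the start of 7 of the 10 genes is held in the RefSeq promoter table of build GRCm38.p6, whose coordinates match mm10. These are Cd274, Pdcd1lg2, Cmtm6, Cd80, Icosl, Tnfrsf14 and Havcr2. The windows of the PD-1 ligand genes and of Cmtm6 are shown because interferon regulatory factors are known to act on Cd274. The Cd274 window is chr19:29367188-29367437, the Pdcd1lg2 window chr19:29410669-29410918 and the Cmtm6 window chr9:114730953-114731115, all on the plus strand, 5′ to 3′, ending before the first annotated exon. Capitals mark matches to the interferon regulatory factor core AANNGAAA and, in Pdcd1lg2, also to the PU.1 core GAGGAA, on either strand.
Cd274: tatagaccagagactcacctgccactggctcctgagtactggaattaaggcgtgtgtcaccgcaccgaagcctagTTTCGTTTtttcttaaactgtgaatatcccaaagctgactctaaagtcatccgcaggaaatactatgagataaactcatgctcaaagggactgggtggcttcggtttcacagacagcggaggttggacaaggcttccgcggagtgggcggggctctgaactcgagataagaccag
Pdcd1lg2: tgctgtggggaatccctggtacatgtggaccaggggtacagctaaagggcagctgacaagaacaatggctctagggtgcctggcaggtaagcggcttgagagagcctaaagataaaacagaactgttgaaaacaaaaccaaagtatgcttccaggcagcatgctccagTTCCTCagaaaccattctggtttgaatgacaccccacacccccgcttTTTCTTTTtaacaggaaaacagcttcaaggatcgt
Cmtm6: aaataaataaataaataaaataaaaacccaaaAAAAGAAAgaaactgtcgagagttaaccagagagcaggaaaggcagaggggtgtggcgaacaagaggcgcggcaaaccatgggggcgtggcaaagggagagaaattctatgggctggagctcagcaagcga

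The 250 bases before each of the 7 starts were searched on both strands. The core AANNGAAA, added to the search after the longer elements had not been found before Cd274, matched before 4 of the 7 genes and in 21.3% of 32851 windows of the same length before all genes. Its match lies 175 bases before the start of Cd274 and 35 bases before that of Pdcd1lg2. The interferon-stimulated response element, searched as a pair of GAAA repeats parted by NN, overlaps that core; it matched before Tnfrsf14 alone among the 7 and in 2.98% of all windows. That match, TTTCATTTTC at chr4:154928132-154928141, lies 64 bases before the gene's start on the minus strand, within an annotated exon. The gamma-activated site TTCNNNGAA, held by 7.02% of all windows, and the NF-kB site, searched as GGGA, N and TTTCC in a row and held by 0.356%, matched before none of the 7. GAGGAA matched before Havcr2 and Pdcd1lg2 and in 23.3% of windows, and the AP-1 site TGANTCA before Havcr2 and Cd80 and in 6.75%. TATAAA, in 12.4% of windows, matched before none of the 7. A match is a string of letters and no evidence of binding.

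Cmtm6, at chr9:114731203-114749343, encodes a membrane protein that binds PD-L1 at the cell surface and keeps it from lysosomal breakdown. It was the most abundant of the 10, with 193, 193 and 147 TPM in the libraries labelled CKO 1 to 3, against 138, 151 and 200 TPM in the libraries labelled WT 1 to 3. The 3 highest libraries were WT 3, CKO 2 and CKO 1, the same ones that share a side of the first component. The mean was 178 ± 26.3 TPM in the libraries labelled CKO and 163 ± 33.0 TPM in the libraries labelled WT, and the log2 difference was 0.13 ± 0.17. It ran from 0.02 without WT 1 to 0.29 without WT 3. Within a library, Cmtm6 stood 5.05-fold to 10.1-fold above Cd274, lowest in CKO 3.

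Cd80 and Cd86 encode the ligands shared by CD28 and CTLA-4. Cd80, at chr16:38458933-38486932, had 19.99, 18.9 and 19.6 TPM in the libraries labelled CKO 1 to 3, against 15.9, 18.6 and 19.4 TPM in the libraries labelled WT 1 to 3. CKO 1 was the highest and WT 1 the lowest, and the groups overlapped. On the log2 scale they differed by 0.12 ± 0.11, with a 95% interval from -0.13 to 0.38.

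Cd86, on the minus strand at chr16:36603869-36666077, had 13.9, 13.1 and 12.4 TPM in the libraries labelled CKO 1 to 3, against 9.54, 8.56 and 14.3 TPM in the libraries labelled WT 1 to 3. All libraries labelled CKO lay above WT 1 and WT 2 and below WT 3. The mean was 13.1 ± 0.759 TPM in the libraries labelled CKO and 10.8 ± 3.07 TPM in the libraries labelled WT. The log2 difference of 0.32 ± 0.20 had an unadjusted p of 0.157 in the limma fit. Without WT 3 it was 0.53, with an unadjusted p of 0.00412 and an adjusted p of 0.512 in limma, and without WT 2 it was 0.17, with an unadjusted p of 0.428. Among CKO 1, CKO 2 and WT 3, the libraries on the negative side of the first component, it was -0.08, with no test. Among CKO 3, WT 1 and WT 2, on the positive side, it was 0.46, again with no test. With a term for the side in the fit of all libraries it was 0.19. Cd86 stood at 0.461 to 0.736 of the level of Cd80 within each library, so Cd80 was the more abundant of the pair in all 6.

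Icosl encodes the ligand of ICOS, a receptor of activated and follicular helper T cells, and lies at chr10:78069368-78079525. It had 17.5, 18.6 and 19.2 TPM in the libraries labelled CKO 1 to 3, against 21.4, 18.1 and 17.4 TPM in the libraries labelled WT 1 to 3. The highest and the lowest library were both labelled WT. Its log2 difference of -0.03 ± 0.11 was the only one of the 10 below 0, and its 95% interval ran from -0.30 to 0.23.

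Cd40, at chr2:165055636-165071654, encodes the receptor through which helper T cells activate macrophages and dendritic cells. It varied least of the 10, with 27.3, 28.6 and 29.3 TPM in the libraries labelled CKO 1 to 3, against 28.5, 26.7 and 30.0 TPM in the libraries labelled WT 1 to 3. The highest library was 1.12-fold above the lowest. Between the groups the log2 difference was 0.00 ± 0.08, and its 95% interval, from -0.20 to 0.20, is a change of -13.0% to 15.1% relative to the libraries labelled WT.

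Tnfsf4, at chr1:161395438-161418206, encodes OX40 ligand, which sustains activated T cells through the receptor OX40. It varied most, with 2.44, 3.72 and 5.04 TPM in the libraries labelled CKO 1 to 3, against 2.38, 3.40 and 1.76 TPM in the libraries labelled WT 1 to 3. In reads these levels are 116, 164 and 197 in the libraries labelled CKO and 81, 170 and 81 in the libraries labelled WT. CKO 3 and CKO 2 were the highest libraries, WT 2 lay above CKO 1, and the highest was 2.87-fold above the lowest. The log2 difference of 0.54 ± 0.33 was the greatest of the 10 with all libraries and had an unadjusted limma p of 0.147. It ran from 0.30 without CKO 3, where that of Tnfrsf14 was 0.59, to 0.81 without CKO 1, with an unadjusted limma p of 0.0419. In the authors' deposited table the log2 fold change of Tnfsf4, positive where the libraries labelled CKO are higher, was 0.57, with a p of 0.107 and an adjusted p of 1.0.

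Tnfrsf14, on the minus strand at chr4:154922210-154928077, encodes HVEM, a receptor that binds LIGHT and also acts as the ligand of the inhibitory receptor BTLA. It had 63.5, 54.2 and 35.8 TPM in the libraries labelled CKO 1 to 3, against 33.5, 30.6 and 58.1 TPM in the libraries labelled WT 1 to 3. CKO 1, WT 3 and CKO 2 formed the upper 3, as for Cmtm6 and Cd86. Its log2 difference was 0.35 ± 0.30, with a 95% interval from -0.37 to 1.07, and the values without 1 library ran from 0.17 to 0.64. LIGHT itself, encoded by Tnfsf14, was at 5.23 to 5.71 TPM in the libraries labelled CKO and 4.90 to 5.43 TPM in the libraries labelled WT.

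Havcr2, at chr11:46454931-46481254, encodes TIM-3, an inhibitory receptor of exhausted T cells that macrophages and dendritic cells also carry. It had 27.1, 31.9 and 29.4 TPM in the libraries labelled CKO 1 to 3, against 27.8, 32.2 and 26.2 TPM in the libraries labelled WT 1 to 3. The extremes, WT 2 and WT 3, were both labelled WT. The log2 difference was 0.04 ± 0.11, with a 95% interval from -0.23 to 0.31. Among TIM-3 ligands, Lgals9, encoding galectin-9, was at 350 to 380 TPM in the libraries labelled CKO and 302 to 396 TPM in the libraries labelled WT.

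The 10 genes thus varied among the 6 libraries in more than one way. Cmtm6, Cd86 and Tnfrsf14 were highest in CKO 1, CKO 2 and WT 3, whereas Cd274 was highest in CKO 3 and WT 3. Cd40, Havcr2, Cd80 and Icosl varied by at most 1.26-fold between any libraries. For likeness to 1 gene, Pearson's r of log2(TPM + 0.1) over the 6 libraries was taken across 11650 genes with a mean of at least 1 TPM; the libraries share the division described above, and these values are a description with no test. Closest to Cd274 were Mllt3 (r = 0.976), Cmpk2 (0.976), Klhl22 (0.972), Rsad2 (0.972) and Slc25a44 (0.970). Rsad2, which encodes the antiviral protein viperin and is induced by interferon, had 41.1, 41.2 and 85.4 TPM in the libraries labelled CKO 1 to 3, against 33.0, 19.3 and 53.6 TPM in the libraries labelled WT 1 to 3. Rsad2 was picked for its likeness to Cd274, so a shared order of libraries follows from the choice. Both were highest in CKO 3, then WT 3, and lowest in WT 2. Closest to Cd86 were Abr, Flywch1 and Tnip1 (each r = 0.998), Nub1 (0.995) and 4930599N23Rik (0.995). Tnip1, an inhibitor of NF-kB signalling, had 49.1, 46.6 and 45.3 TPM in the libraries labelled CKO 1 to 3, against 38.8, 36.8 and 50.1 TPM in the libraries labelled WT 1 to 3.

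**Figure D3:**
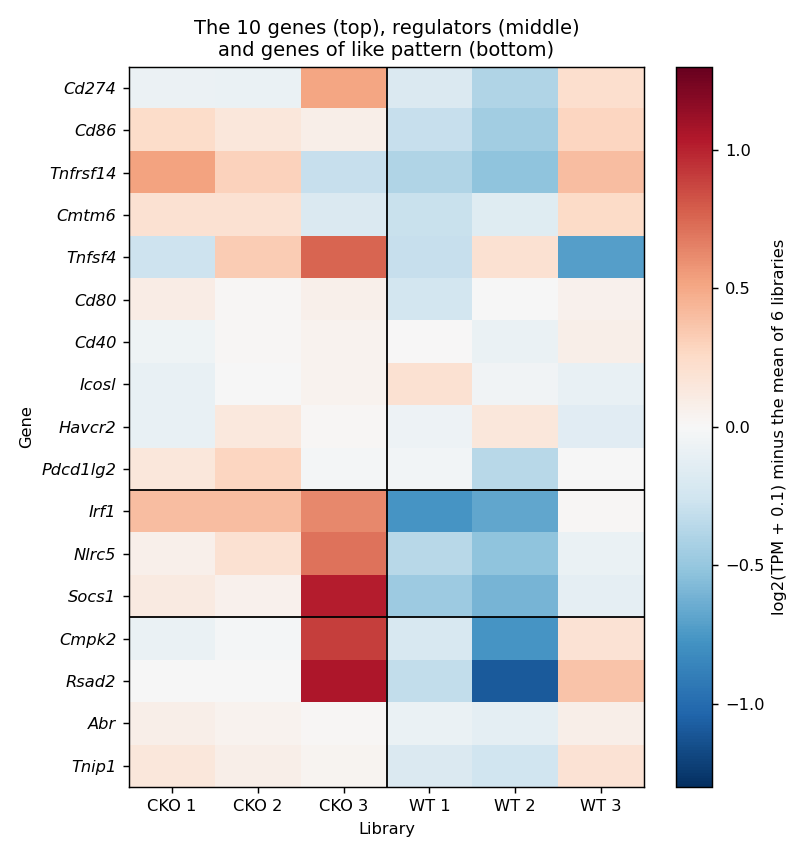
Log2(TPM + 0.1) of the 10 genes, of regulators of Cd274 and of some of the genes closest to Cd274 or Cd86. Values are shown per library as the difference from the gene's mean over the 6 libraries. Red is above that mean and blue below, and libraries labelled CKO stand left of those labelled WT. Of the genes closest to Cd274 only Cmpk2 and Rsad2 are shown, and of those closest to Cd86 only Abr and Tnip1. Cd86, Tnfrsf14 and Cmtm6 are above their means in CKO 1, CKO 2 and WT 3, and Cd86 is above its mean in CKO 3 too. Cd274 and Rsad2 are highest in CKO 3.

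Of 24 genes that signal to Cd274 transcription, the log2 difference was above 0 for 20, with a median of 0.08. In limma 0 passed and 4 had an unadjusted p under 0.05, against 2.18% of all genes tested. The groups did not overlap for 5, all higher in the libraries labelled CKO, which 2.84% of all genes tested were. Irf1, the transcription factor through which interferon gamma acts on Cd274, had 70.2, 70.6 and 82.5 TPM in the libraries labelled CKO 1 to 3, against 31.4, 33.3 and 53.9 TPM in the libraries labelled WT 1 to 3. Every library labelled CKO lay above every library labelled WT, and the log2 difference was 0.95 ± 0.21. In the authors' deposited table the adjusted p of Irf1 was 0.00683, the only one of the 24 under 0.05.

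Nlrc5, an activator of MHC class I genes, had a log2 difference of 0.64 ± 0.20 and Socs1, a feedback inhibitor of JAK kinases, one of 0.79 ± 0.30; neither passed limma, nor did Irf1. Jak2, a kinase of the interferon gamma receptor and a neighbour of Cd274, was at 38.9, 37.9 and 38.2 TPM in the libraries labelled CKO 1 to 3, against 31.8, 33.2 and 37.9 TPM in the libraries labelled WT 1 to 3. Ifngr1, a chain of that receptor and the most abundant of the 24, was at 145 to 235 TPM in the libraries labelled CKO and 169 to 251 TPM in the libraries labelled WT.

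Of 24 listed genes of the interferon gamma response, 23 were tested and all 23 had a log2 difference above 0, with a median of 0.79. The list was chosen with earlier results of these data known, so these counts describe it and do not test it. In limma 0 passed and 19 had an unadjusted p under 0.05, against 2.18% of all genes tested. The groups did not overlap for 18, all higher in the libraries labelled CKO, which 2.84% of all genes tested were. The authors' deposited table has 9 of the 24 at an adjusted p under 0.05, against 0.265% of all its genes. Cxcl9, a chemokine that attracts T cells, had 1.56, 3.05 and 4.88 TPM in the libraries labelled CKO 1 to 3, against 0.130, 0.0775 and 0.180 TPM in the libraries labelled WT 1 to 3. Gbp2, a guanylate-binding protein, had a log2 difference of 2.52 ± 0.46. Cd274, an interferon-induced gene itself, differed by 0.24 ± 0.22 in the same fit, and no test of the contrast between these genes and Cd274 was made.

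The T cell side of the same pairs was read as well. Of 14 receptors of these ligands 11 were tested, 9 with a log2 difference above 0. The median was 0.28, and stayed 0.28 with Tigit, which had no read in the libraries labelled WT, set to its bound. In limma 0 passed and 3 had an unadjusted p under 0.05, against 2.18% of all genes tested. The groups did not overlap for 4, against 5.12% of all genes tested. Of the 4, 3 were higher in the libraries labelled CKO, which 2.84% of all genes tested were without overlap. The median turned to -0.00 when genes needed 1 TPM in 3 libraries. For Pdcd1, the PD-1 gene, 12, 19 and 20 reads were found in CKO 1 to 3, against 6, 2 and 2 reads in WT 1 to 3. Tigit, an inhibitory receptor of T and NK cells, had 9, 5 and 11 reads in the libraries labelled CKO and 0 in each library labelled WT, at least 8.26-fold higher relative to library totals when 3 reads are allowed over the WT libraries together. Both passed an adjusted p of 0.05 in the authors' deposited table.

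Markers of T and NK cells were read beside these receptors. All 9 of the 12 markers that were tested had a log2 difference above 0, with a median of 1.66. In limma 0 passed and 8 had an unadjusted p under 0.05, against 2.18% of all genes tested. The authors' deposited table has 6 of the 12 at an adjusted p under 0.05, against 0.265% of all its genes. The groups did not overlap for 7 markers, all higher in the libraries labelled CKO, which 2.84% of all genes tested were. The summed level of the 12 markers was 15.7 to 28.8 TPM in the libraries labelled CKO and 11.3 to 29.3 TPM in the libraries labelled WT. Cd4 gave the largest single share of it in every library but CKO 3, and the span of the sum depends largely on Cd4. It had 22.3, 15.3 and 5.15 TPM in the libraries labelled CKO 1 to 3, against 6.53, 8.62 and 25.3 TPM in the libraries labelled WT 1 to 3. The groups overlapped for Cd4 and Cd8b1 among the tested markers. For Cd3e, part of the complex that carries the T cell receptor, the read numbers were 14, 17 and 10 in the libraries labelled CKO and 2, 3 and 0 in the libraries labelled WT. In all, 4 of the 12 had 0 reads in at least 1 library. The part of these cells in the receptor values was not tested.

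Cd28 was the exception in level among the receptors. It had 119, 114 and 83.5 TPM in the libraries labelled CKO 1 to 3, against 73.7, 74.0 and 117 TPM in the libraries labelled WT 1 to 3, far above Cd3e at 0 to 0.432 TPM. CKO 1, WT 3 and CKO 2 were again the highest 3, the same 3 as for its ligand gene Cd86. Its log2 difference was 0.28 ± 0.22. Btla, the receptor of HVEM, was at 2.19 to 3.29 TPM in the libraries labelled CKO and 3.12 to 3.49 TPM in the libraries labelled WT.

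Of 16 ligands of the TNF superfamily, to which OX40 ligand belongs, 13 were tested, 12 with a log2 difference above 0 and a median of 0.16. Over all genes tested, 2.18% had an unadjusted p under 0.05 and 2.84% were higher in the libraries labelled CKO without overlap. In limma 0 of the 13 passed, 1 had an unadjusted p under 0.05 and the groups did not overlap for 2, both higher in the libraries labelled CKO. These were Fasl, which kills through Fas and had 8, 9 and 9 reads in the libraries labelled CKO, against 0, 1 and 1 reads in the libraries labelled WT, and Tnfsf8, the CD30 ligand. In the authors' deposited table the adjusted p of Fasl was 0.00612, the only one of this list under 0.05. Tnfsf9, encoding the 4-1BB ligand, was highest in CKO 3, WT 1 and WT 2, the libraries where Cd86 was lowest. It had 11.4, 11.2 and 27.5 TPM in the libraries labelled CKO 1 to 3, against 22.9, 17.9 and 8.32 TPM in the libraries labelled WT 1 to 3. Its log2 difference was 0.01 ± 0.48.

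Among 9 relatives of the B7 family 5 were tested, 2 with a log2 difference above 0, and the median was -0.05. Vsig4, an inhibitory ligand of resident macrophages, had 0.802, 0.993 and 1.04 TPM in the libraries labelled CKO 1 to 3, against 2.01, 4.20 and 2.15 TPM in the libraries labelled WT 1 to 3. The groups did not overlap, the log2 difference was -1.40 ± 0.30, and limma did not call it. In the authors' deposited table its adjusted p was 0.0187. The most abundant relative was 4632428N05Rik, the older symbol of Vsir, which encodes VISTA, at 184 ± 55.3 TPM in the libraries labelled CKO and 172 ± 50.3 TPM in the libraries labelled WT.

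**Figure D4:**
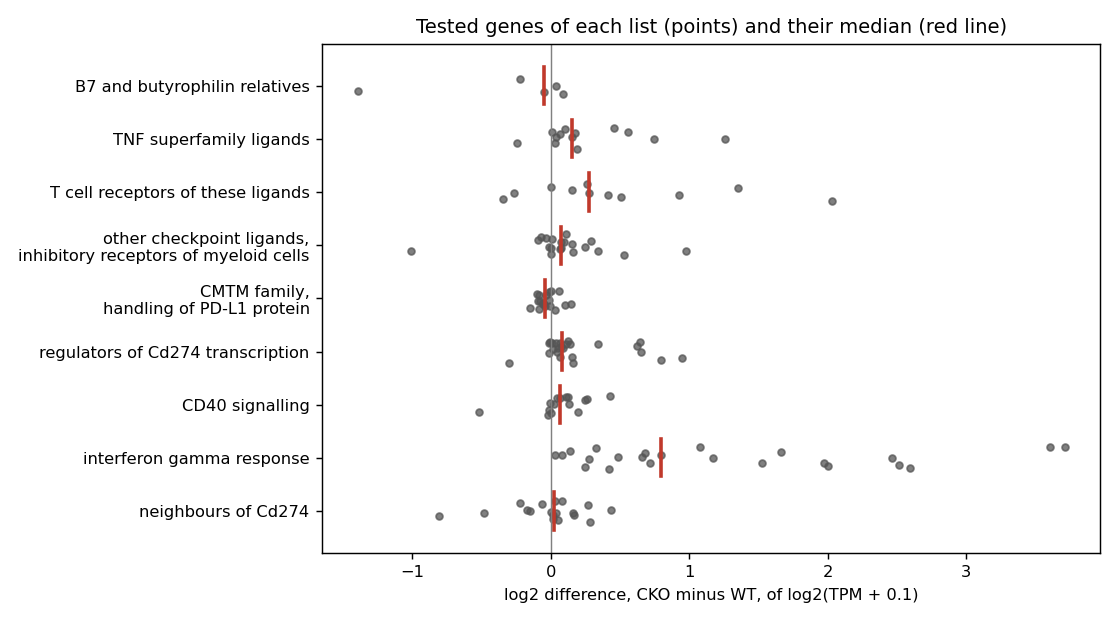
Log2 difference, libraries labelled CKO minus libraries labelled WT, of every tested gene in 9 lists related to the 10 genes, on the log2(TPM + 0.1) scale; points are genes, red lines list medians, and the grey line is 0. The interferon gamma response has a median of 0.79 with 23 of 23 genes above 0, and the other lists have medians between -0.05 and 0.28. The lists were chosen with earlier results of these data known.

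Around Cd274, 22 other genes have their lower coordinate within 1 Mb of its start, and 18 of them were tested, Pdcd1lg2 included. For genes on the minus strand, such as Insl6 and Plgrkt, the lower coordinate is the end of the gene. The log2 difference was above 0 for 12 of the 18, and the median was 0.02. The groups did not overlap for 2 of the 18, against 5.12% of all genes tested. Insl6, a relative of insulin, has its lower coordinate 46.1 kb from the start of Cd274. Its levels were 21.2, 22.7 and 22.6 TPM in the libraries labelled CKO 1 to 3. In the libraries labelled WT 1 to 3 they were 17.1, 14.6 and 17.6 TPM. Its log2 difference was 0.43 ± 0.10, with an unadjusted p of 0.00485 and an adjusted p of 1.0 in limma, and 0.35 to 0.49 without 1 library. Plgrkt, a plasminogen receptor gene, has its lower coordinate 18.8 kb from the start of Cd274. Its levels were 202, 202 and 156 TPM in the libraries labelled CKO 1 to 3. In the libraries labelled WT 1 to 3 they were 130, 144 and 191 TPM. Its upper 3 libraries were CKO 1, CKO 2 and WT 3, as for Cd86.

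**Figure D5:**
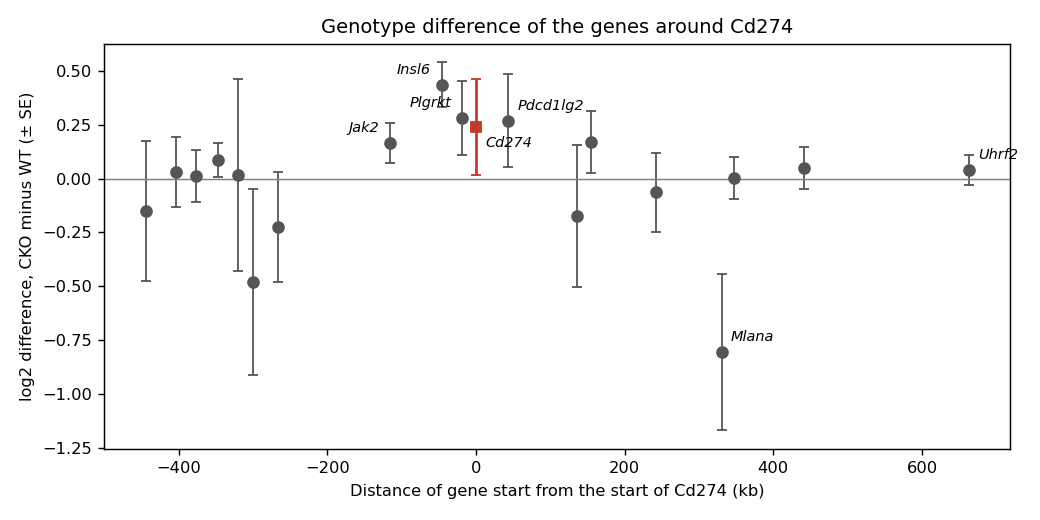
Log2 difference, libraries labelled CKO minus libraries labelled WT, of tested genes within 1 Mb of the start of Cd274, against distance in kb. Distance runs from that start to each gene's lower coordinate, whatever its strand. Points are limma estimates, lines the SE, and Cd274 stands at 0. Insl6, at 0.43, and Mlana, at -0.81, are the genes whose groups do not overlap.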

How the data were processed

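Strand-specific total RNA libraries were made and sequenced per the labels' protocols. Per the submitters' processing notes, the build was mm10 and the tools named are featureCounts, Subread, edgeR, Picard 1.127, TopHat2 2.0.12 and FastQC 0.11.2, with no role stated. The authors deposited TPM per gene and library, a unit read from the values, which sum to 1000000 in each library. Per the file headers the authors' table also holds a score (the likelihood ratio), log2 fold changes, mean log2 CPM and p-values, raw and adjusted.

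TPM ratios between libraries gave whole reads, within 0.01 read, for 100% of 94034 values above 0; for 427 genes the common factor came from the mean log2 CPM. The groups were compared by limma 3.58.1 (R 4.3.3, mean-variance trend, two-sided) on log2(TPM + 0.1), a scale that understates changes of low genes. Genes under 0.1 TPM in more than 3 libraries were left out. limma-voom on the recovered reads was the alternative that models reads. The scripts were tested on simulated data. No exact permutation test was run, since with 3 libraries per group its smallest p is 0.1. All p-values rest on the spread among the samples of each group, which may be technical in part.

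The 10 genes, the 9 lists and the rules were chosen with earlier results of these data known. The rule named all 10 genes, from each list the 4 genes of lowest p and the 2 of highest mean TPM, and the 5 genes most like Cd274 and Cd86. Tnfsf9, Tnfsf14, Lgals9, Cmtm4, Relb, Birc3 and the cell type markers were named for their relation to the 10 genes or their groups after their values were seen; not all genes that the rule gives are named, and 1 of them is not reported here. Alternatives were another pseudocount, filter, scaling and variance model, a replicate block, a covariate for the first component's sides, and leaving out each library.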

Additional observations from a re-analysis of the deposited data

How the results depend on the processing

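limma called 0 genes in every alternative. Cd274 was -0.30 and 0.81 among CKO 1, CKO 2 and WT 3 and among CKO 3, WT 1 and WT 2, the 2 sides of the first component, too few for a test; without 1 library it ran from 0.04 to 0.41. Sign changed in at least 1 setting for 6 of the 10 genes. Besides Cd274, Cd86 was -0.08 among CKO 1, CKO 2 and WT 3, and 0.46 among CKO 3, WT 1 and WT 2. Cd40 was -0.0017 with median-of-ratios scaling, -0.0056 with limma-voom and -0.0069 with a term for the side; with that term Cmtm6 was -0.011 and Icosl 0.010. Without 1 library, Cd40 ran from -0.042 to 0.040, Icosl from -0.094 to 0.055 and Havcr2 from -0.026 to 0.12. Same-numbered libraries did not deviate together, with correlations of -0.24, -0.15 and -0.53. With 3 libraries per group, such values cannot exclude that the numbers pair them. With the replicate number as a block, which cannot change the estimate in this balanced design, Cd274 stayed at 0.24. Its SE was 0.12 in place of 0.22, its unadjusted limma p was 0.115, and 0 genes were called. Without WT 3, 1012 genes had an unadjusted p under 0.05 against 299 with all libraries, and with the term for the side 1042 had. Depth limits Pdcd1lg2, Tigit, Fasl, Pdcd1 and Cd3e, which rest on few reads. With 3 libraries per group, the interval of Tnfsf4 ran from -15.8% to 152% and that of Tnfrsf14 from -22.9% to 110.4%.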

Other observations

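Some related groups of genes were not described above. Of 23 other checkpoint ligands and inhibitory receptors of myeloid cells, 20 were tested, 15 with a log2 difference above 0 and a median of 0.07. In limma 0 passed and 2 had an unadjusted p under 0.05, against 2.18% of all genes tested. The groups did not overlap for 2, against 5.12% of all genes tested. Fgl2, encoding a fibrinogen-like protein that can be secreted and restrains T cells, had 25.4, 30.8 and 43.2 TPM in the libraries labelled CKO 1 to 3, against 16.1, 13.3 and 20.5 TPM in the libraries labelled WT 1 to 3. Every library labelled CKO lay above every library labelled WT, and the adjusted p in the authors' deposited table was 0.00602. Timd4, a phosphatidylserine receptor of resident macrophages, had 0.575, 0.738 and 0.909 TPM in the libraries labelled CKO 1 to 3, against 0.955, 2.08 and 1.91 TPM in the libraries labelled WT 1 to 3. Sirpa, the receptor of CD47, was at 1008 to 1260.4 TPM in the libraries labelled CKO and 1126 to 1308 TPM in the libraries labelled WT, above each of the 10 genes.

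Of 22 genes of the CMTM family and of PD-L1 protein handling, 18 were tested, 4 with a log2 difference above 0 and 14 below. The median was -0.04, 0 had an unadjusted limma p under 0.05, and the groups overlapped for all 18. Cmtm4, the closest relative of Cmtm6, averaged 12.9 ± 0.63 TPM in the libraries labelled CKO and 13.4 ± 0.62 TPM in the libraries labelled WT (SD, n = 3 each).

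Of 16 genes of CD40 signalling, 15 were tested, 11 with a log2 difference above 0 and a median of 0.06. In limma 0 passed and 1 had an unadjusted p under 0.05, against 2.18% of all genes tested. The groups did not overlap for 2, 1 in each direction, against 5.12% of all genes tested. Il12a, which encodes the p35 chain of interleukin-12, had 1.48, 1.46 and 1.41 TPM in the libraries labelled CKO 1 to 3, against 2.17, 2.14 and 2.07 TPM in the libraries labelled WT 1 to 3. The groups did not overlap, and its log2 difference was -0.52 ± 0.13, with an adjusted p of 1.0 in limma. Tank was the gene without overlap in the other direction. It had 79.1, 79.8 and 98.8 TPM in the libraries labelled CKO 1 to 3, against 72.9, 77.5 and 73.4 TPM in the libraries labelled WT 1 to 3. Relb and Birc3, parts of the non-canonical NF-kB route downstream of CD40, were highest in CKO 1, CKO 2 and WT 3. Relb had 25.7, 21.6 and 14.5 TPM in the libraries labelled CKO 1 to 3, against 13.7, 14.2 and 24.6 TPM in the libraries labelled WT 1 to 3.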
